A study of Mus musculus with 3 samples.

Results

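Barhl1, its paralogue Barhl2, the transcription factor gene Atoh1 and the 5 genes that flank Barhl1 on chromosome 2 (Ddx31, Gtf3c4, Ttf1, Ak8 and Cfap77) were followed across 3 mouse cultures. These 8 genes were chosen by name from the 47725 genes in the tables, and each name matched 1 row of each table. RNA was sequenced from cells derived from 3 mouse embryonic stem cell (mESC) lines: the wild type (WT), a Barhl1 mutant called BM, and BEM, which carries a mutated E-box that the design text names E3. For all 3 lines, otic progenitors (precursor cells of the inner ear) had been dissociated and co-cultured on embryonic chicken utricle stromal cells whose division had been blocked. The medium was DMEM/F12 with N2, B27, 25 ng/ml EGF and 1 µM retinoic acid, and the labels give culture day 9 of induction towards hair cell-like cells. Each line gave 1 library, so a difference between lines has no replicate check and no p-value of its own is given here. The kind of mutation in BM, the position of the E3 site, the genotype at each allele and whether each line is 1 clone are not stated in the labels or the design text. They do not say either how reads from the chicken cells were handled. In such bulk samples, fewer cells of a type and less RNA per cell cannot be told apart.

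ATOH1 is a basic helix-loop-helix (bHLH) factor that pairs with E proteins and binds E-boxes, short DNA motifs of the form CANNTG. It is required for hair cells of the inner ear, and it also acts in cerebellar granule cells, dorsal spinal interneurons, intestinal secretory cells and Merkel cells of the skin. BARHL1 and BARHL2 are homeodomain factors of the Bar class, found together with ATOH1 in several of these lineages, and mouse Barhl1 is needed for the long-term survival of hair cells. ATOH1 is known to act on Barhl1 through an E-box on the 3′ side of the gene. The neighbours have other roles: Ddx31 encodes a DEAD-box RNA helicase, Gtf3c4 a subunit of the RNA polymerase III factor TFIIIC, Ttf1 the factor that ends transcription of ribosomal RNA genes, Ak8 an adenylate kinase and Cfap77 a protein of cilia and flagella.

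On GRCm38, Barhl1 (ENSMUSG00000026805) lies on the minus strand at chr2:28907679-28916668 in the GENCODE annotation. Its 3′ end faces the 3′ end of Ddx31 (ENSMUSG00000026806, plus strand, chr2:28840406-28905571), with 2107 bases between the genes. Gtf3c4 (ENSMUSG00000035666, minus strand, chr2:28822299-28840360) starts back to back with Ddx31, with 45 bases between the starts. Ak8 (ENSMUSG00000026807, plus strand, chr2:28700164-28813165) lies farther out on that side. Beyond the 5′ end of Barhl1 come Cfap77 (ENSMUSG00000079502, minus strand, chr2:28926949-29055066) and Ttf1 (ENSMUSG00000026803, plus strand, chr2:29060262-29087656). Atoh1 (ENSMUSG00000073043) is at chr6:64729125-64731245 on the plus strand and Barhl2 (ENSMUSG00000034384) at chr5:106452523-106458166 on the minus strand.

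The 250 bases before the annotated starts of the 3 transcription factor genes are shown because the BEM line is defined by an E-box, with every CANNTG in capitals. They are RefSeq windows on GRCm38.p6, printed 5′ to 3′ on the strand of the gene. Barhl1 has 2 annotated starts: window 1 is chr2:28916669-28916918 and window 2, which lies inside the longer transcript unit, is chr2:28912496-28912745. The Barhl2 window is chr5:106458167-106458416 and the Atoh1 window chr6:64728875-64729124. The last line is the whole stretch between the starts of Gtf3c4 and Ddx31, chr2:28840361-28840405 on the plus strand, shown because these adjoining genes gave different ratios to WT.
Barhl1 window 1: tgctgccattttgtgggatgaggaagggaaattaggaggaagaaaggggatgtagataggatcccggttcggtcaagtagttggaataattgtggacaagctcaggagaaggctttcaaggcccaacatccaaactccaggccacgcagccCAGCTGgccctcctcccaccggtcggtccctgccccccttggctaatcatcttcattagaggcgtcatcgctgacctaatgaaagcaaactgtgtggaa
Barhl1 window 2: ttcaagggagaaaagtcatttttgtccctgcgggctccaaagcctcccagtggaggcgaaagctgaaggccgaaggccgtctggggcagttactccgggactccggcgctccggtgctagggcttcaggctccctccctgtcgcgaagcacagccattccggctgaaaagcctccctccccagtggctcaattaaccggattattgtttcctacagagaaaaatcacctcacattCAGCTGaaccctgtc
Barhl2 window: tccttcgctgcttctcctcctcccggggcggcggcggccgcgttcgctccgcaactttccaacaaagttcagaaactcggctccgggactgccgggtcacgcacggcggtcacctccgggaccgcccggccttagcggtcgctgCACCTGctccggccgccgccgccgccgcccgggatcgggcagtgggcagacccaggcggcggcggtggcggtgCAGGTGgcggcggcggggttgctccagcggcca
Atoh1 window: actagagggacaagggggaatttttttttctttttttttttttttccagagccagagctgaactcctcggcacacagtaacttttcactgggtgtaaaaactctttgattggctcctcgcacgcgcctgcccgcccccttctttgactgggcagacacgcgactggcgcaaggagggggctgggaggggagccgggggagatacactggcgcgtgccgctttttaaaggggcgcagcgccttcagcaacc
Gtf3c4 to Ddx31: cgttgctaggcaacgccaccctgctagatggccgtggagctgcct

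The E-box in window 1 of Barhl1 is a CAGCTG whose first base is at position -99 counted from the annotated start as 0, and window 2 holds a CAGCTG at position -15. Over 300-base windows, from 250 bases before to 50 after a start, CANNTG (a palindromic form, so both strands are read together) was in 6 of the 9 windows of the 8 genes. It was in 72.3% of all 32817 windows of that length. CAGCTG, a subset of CANNTG, was in 4 of the 9: both Barhl1 windows, Ttf1 at position -37 and Ak8 at position -49. It was in 16.3% of all windows. CAGATG or its reverse complement CATCTG was in 0 of the 9 and in 17.2% of all windows. The windows of Atoh1, Ddx31 and Gtf3c4 held 0 CANNTG. These are letter matches in a promoter window, and the E3 site itself was not located.

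**Figure D1:**
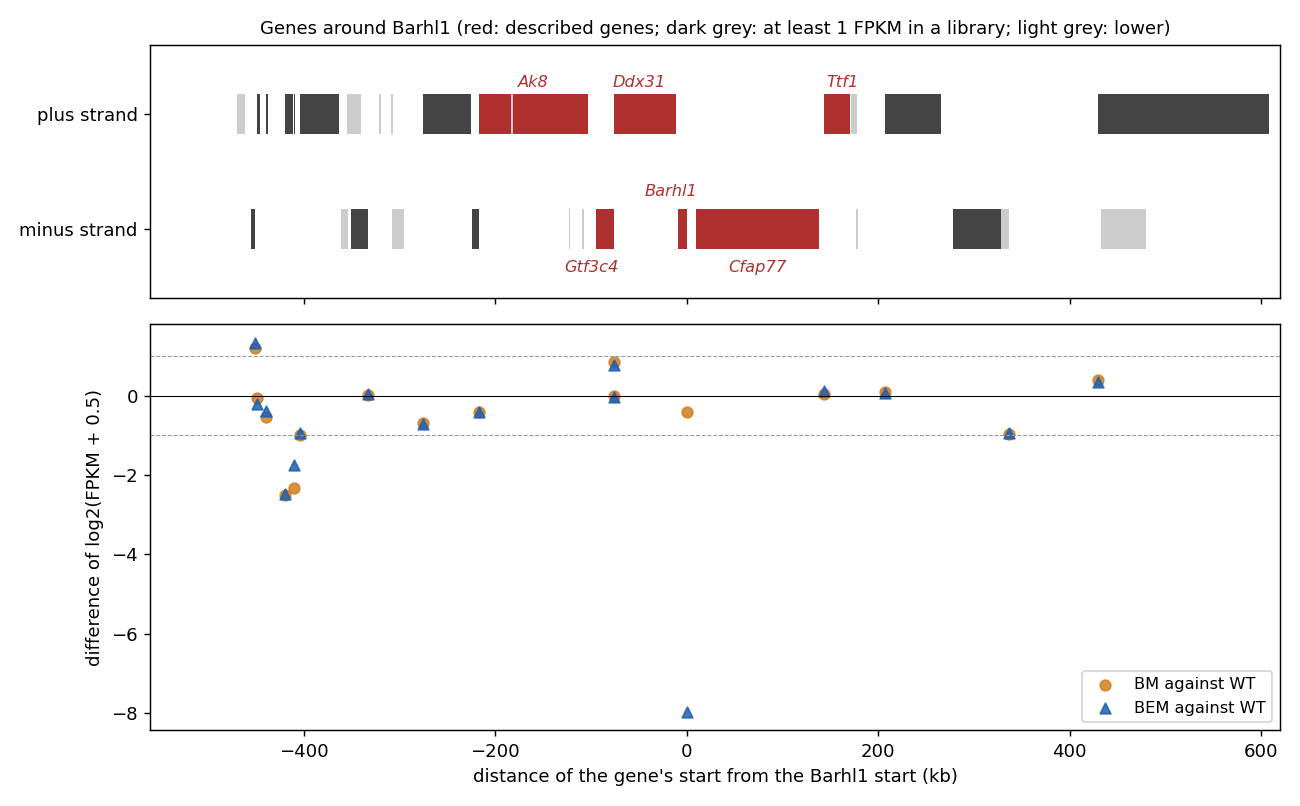
The upper panel maps the genes around Barhl1 by distance in kb from its annotated start, with a row for each strand, and the lower panel plots the difference of log2(FPKM + 0.5) to WT for genes of at least 1 FPKM in a library (circles BM, triangles BEM, dashed lines 2-fold). Barhl1 in BEM lies at -7.96, far below every other point, while in BM it lies at -0.41.

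The WT library held 21555823 reads, BM 20111794 and BEM 23813123, recovered from the deposited FPKM (read counts divided by gene length and library total). Of the 47725 genes, 12875 averaged 1 FPKM or more across the libraries and are called measured. Among the 8 genes, Barhl1, Atoh1, Ddx31, Gtf3c4 and Ttf1 were measured, and Barhl2, Ak8 and Cfap77 were not. FPKM of whole reads are whole multiples of the value of 1 read, and 12873 of the 12875 measured genes gave whole reads in all 3 libraries to within 0.0001 reads. The other 2 measured genes were Barhl1 and Atoh1. At the annotated length of 3905 bases, Barhl1 came to 10646.8 reads in WT, 7465.16 in BM and 0.998 in BEM. At 2121 bases, Atoh1 came to 12355.3, 10086.5 and 12164.9 reads. No length up to 120000 bases brought the values of either gene to whole reads: the smallest distance was 0.0105 reads for Barhl1 and 0.0136 for Atoh1, while the largest among the other measured genes was 5.94e-05. The cause was not tested. Counting intervals are therefore given for the neighbours and not for Barhl1 or Atoh1, and the values of these 2 genes are given as deposited.

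**Figure D2:**
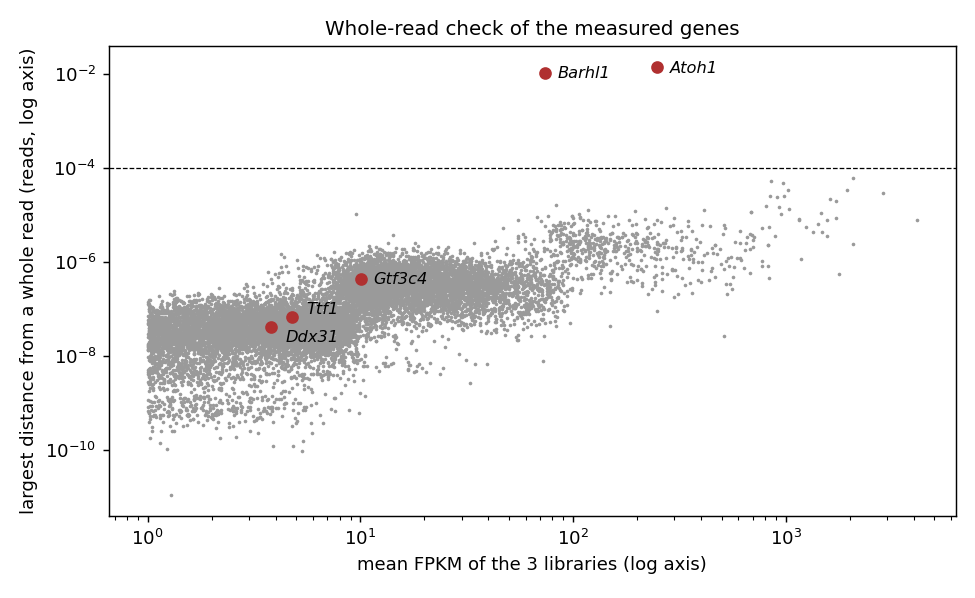
Each measured gene is placed by its mean FPKM (log axis) and by the largest distance of its recovered reads from whole numbers (in reads, log axis; the dashed line is 0.0001). Barhl1 and Atoh1 sit at 0.0105 and 0.0136 reads, apart from the remaining 12873 genes, which lie at or under 5.94e-05.

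Barhl1 stood at 126.5 FPKM for WT, 95.1 for BM and 0.0107 for BEM. WT and BM were both high and BEM was near 0, below the 0.0108 FPKM that a single read would give a gene of its length in that library. It ranked 314th of 47725 genes in WT and 480th in BM, and 22424th in BEM. In BM the level was 75.2% of that in WT, or 1.33-fold lower, a difference of -0.41 in log2(FPKM + 0.5). In that comparison 4325 measured genes had a lower ratio and 8549 a higher ratio, so Barhl1 was inside the bulk of the genes. A gene-level FPKM does not show base changes in the transcript, so these values do not check the BM genotype.

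In BEM, Barhl1 differed from WT by -7.96 and from BM by -7.55 in log2(FPKM + 0.5). Both were the lowest ratios among the 12875 measured genes. The pseudocount of 0.5 FPKM sets the size of these ratios, which were -11.02 and -10.61 with 0.05 FPKM and -4.71 and -4.32 with 5 FPKM. No fold is given, because the BEM value is below 1 read. In the authors' deposited table the log2 ratio was -13.52 for BEM against WT (p 3.67e-16, FDR 5.3e-11) and -13.11 for BEM against BM (p 8.72e-16, FDR 9.81e-11). For BM against WT the authors' deposited table gave -0.41 (p 0.773, FDR 1). The labels do not say how the authors reached a p-value without replicates.

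**Figure D3:**
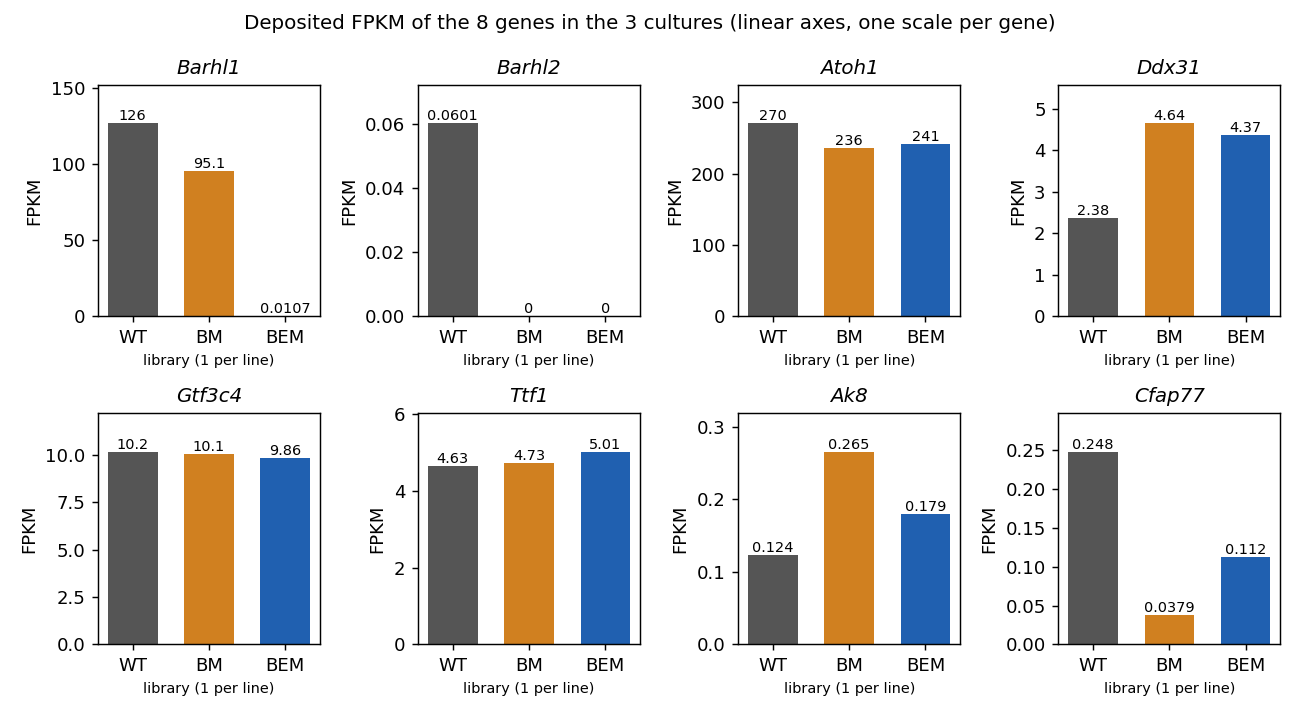
Bars give the deposited FPKM of each of the 8 genes, 1 bar per library, on linear axes scaled for each gene; there are no replicates and so no error bars. Barhl1 spans from 126.5 FPKM in WT to 0.0107 FPKM in BEM, Atoh1 stays between 236.5 and 270.2 FPKM, and Barhl2 is listed at 0 in BM and BEM.

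Among all measured genes, 0.784% were at least 2-fold apart between BEM and BM, against 25.8% between BM and WT and 25.9% between BEM and WT. By direction, 0.458% were higher and 0.326% lower in BEM than in BM, 10.5% were higher and 15.3% lower in BM than in WT, and 10.7% were higher and 15.3% lower in BEM than in WT. Of the 5 measured genes described here, 1 (Barhl1, lower) was past 2-fold between BEM and BM, 0 between BM and WT, and 1 (again Barhl1, lower) between BEM and WT. Their median log2 ratio was -0.01 for BM against WT (all measured genes -0.08), -0.04 for BEM against WT (all -0.07) and -0.03 for BEM against BM (all 0.0019). The BM and BEM comparisons with WT share the WT library, so likeness between them is not a separate result. For BEM against BM, the log2 ratios of all measured genes ran from -0.20 at the 5% point to 0.23 at the 95% point. Among the 5238 genes averaging 10 FPKM or more, 3 were 2-fold apart between BEM and BM: Barhl1, Gstp2 (10.9 FPKM in BM and 4.47 in BEM) and the small RNA gene Gm25047 (6.69 and 2.83 FPKM). Gstp2 had 338 reads in BM and 164 in BEM, while Gm25047 had only 14 and 7. Gstp2 and Gm25047 are named after their values were seen.

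The spread between BEM and BM was above counting error and far below that between BM and WT. Over 8856 genes with whole reads at their annotated length and at least 20 reads in both libraries together, the median chi-square of BEM against BM was 0.694, where counting error alone gives 0.455, and the mean was 1.74, where it gives 1. For BM against WT the median was 41.9. The 95% counting interval excluded equal levels for 11.1% of these genes, where counting error alone gives at most 5%. The corresponding share was 81.5% of 8980 genes for BM against WT. The labels do not say whether the BM and BEM cultures were grown or prepared together.

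**Figure D4:**
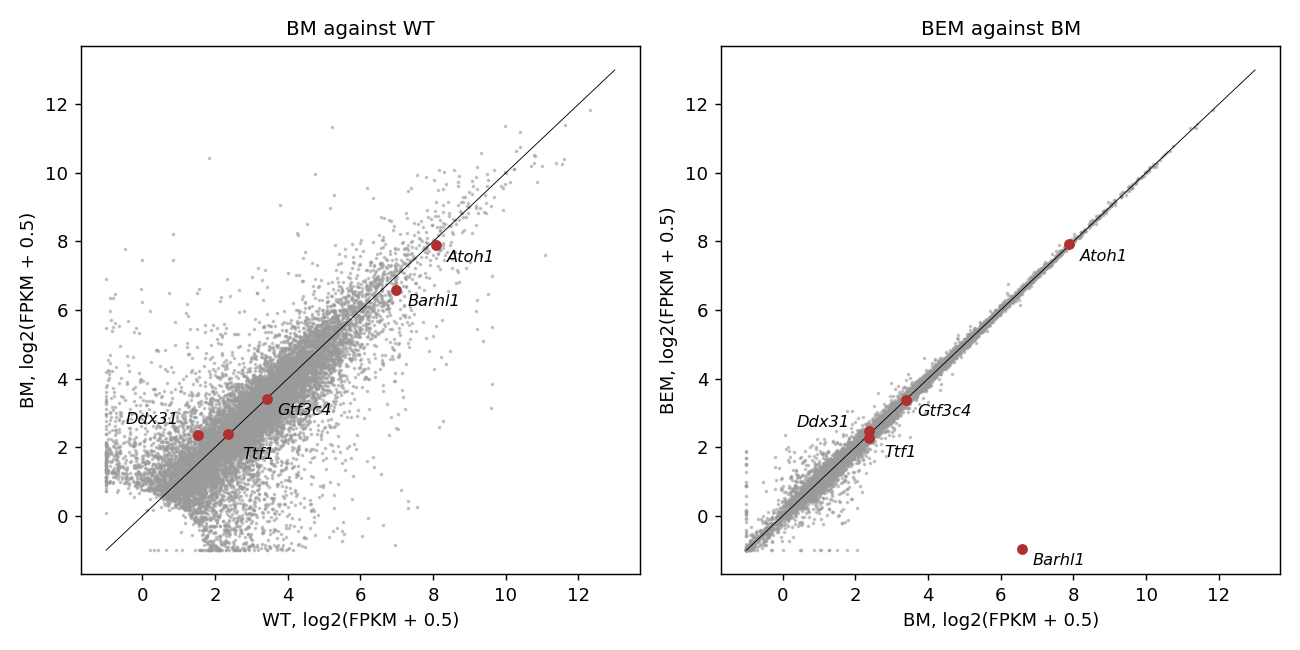
Each measured gene is placed by log2(FPKM + 0.5) in 2 libraries, WT and BM on the left, BM and BEM on the right, with the line of equal values and the measured genes described here in red. On the right Barhl1, at 95.1 FPKM in BM and 0.0107 in BEM, lies away from the narrow band of genes, and on the left the band is broad with Barhl1 and Atoh1 inside it.

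Atoh1 was at 270.2 FPKM for WT, 236.5 for BM and 240.9 for BEM. The gene was high in every library, at rank 141, 169 and 168 of 47725, and above Barhl1 in each. BM was 1.14-fold and BEM 1.12-fold lower than WT, and BEM and BM differed by 0.03 in log2(FPKM + 0.5). The log2 ratio to WT was -0.19 for BM and -0.17 for BEM, and the authors' deposited table gave the same pair of values. With upper quartile scaling, which moved all ratios of BM to WT by 0.17 and of BEM to WT by 0.17, these became -0.02 and 0.0019, so the direction for BEM turned. Atoh1 was therefore not placed above or below WT. For BM against WT, 5655 measured genes had a lower ratio than Atoh1 and 7219 a higher one.

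Within 500 kb of the Atoh1 start, 11 genes are annotated and 4 reached 1 FPKM in a library. Smarcad1, a chromatin remodelling ATPase, was at 2.56 FPKM for WT, 3.40 for BM and 3.17 for BEM. Hpgds, which encodes the haematopoietic prostaglandin D synthase, was at 0.0217 FPKM for WT, 3.21 for BM and 3.35 for BEM, from 3, 415 and 512 reads. The 3 reads in WT are at the floor, so the ratio is loose: 148 for BM against WT (95% counting interval 50.4 to 722) and 154 for BEM against WT (52.6 to 752). The pseudogene Gm17147, which lies inside Hpgds on the other strand, had 0 reads in WT, 9 in BM and 15 in BEM. Gm17147 and Hpgds were thus higher in both mutants, while Atoh1 stayed under 2-fold. Gm17147 and Hpgds reached 1 FPKM only in BM and BEM, so the limit that kept them favoured this direction. Their number is not read as a result. Of all measured genes, 10.5% (BM) and 10.7% (BEM) were higher, but Gm17147 did not average 1 FPKM and is not among those. The labels do not say whether counting used strand, and whether the reads of Gm17147 are separate from those of Hpgds was not tested.

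ATOH1 works as a dimer with the E proteins, and the Id proteins hold E proteins away from it. All 7 genes of that list were measured: in BM and in BEM alike, 2 exceeded WT by 2-fold or more and 2 were as far below it. Over all measured genes, 10.5% were higher and 15.3% lower in BM, and 10.7% and 15.3% in BEM. These shares apply to every list below. The E protein gene Tcf3 was at 39.1 FPKM for WT, 34.3 for BM and 34.2 for BEM. Id1 was at 116.5, 30.0 and 29.3 FPKM, 3.88-fold lower in BM (95% counting interval 3.58 to 4.22). Id3 was at 115.8, 43.4 and 44.0 FPKM, 2.67-fold lower in BM (2.52 to 2.83). Id2 was higher in the mutants at 7.45, 23.8 and 20.7 FPKM, and Id4, named after its values were seen, was at 1.01, 6.77 and 6.53 FPKM. The median log2 ratio of the list was -0.19 against WT in both mutants.

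Notch signalling holds Atoh1 down in neighbouring cells through effectors such as HES1. Of 11 genes on that list 6 were measured, with 3 higher and 1 lower in BM, and 2 higher and 1 lower in BEM (median log2 ratio 0.53 and 0.56). Over all measured genes, 10.5% (BM) and 10.7% (BEM) were higher. The 1 lower gene is near the share of all measured genes, 15.3% in each mutant. The ligand gene Jag1 was at 3.20 FPKM for WT, 42.7 for BM and 43.3 for BEM, which is 13.4-fold higher in BM. Hes1 was at 13.3, 29.1 and 26.7 FPKM, 2.19-fold higher in BM (1.98 to 2.42) and 2.01-fold in BEM (1.82 to 2.22). On the log2(FPKM + 0.5) scale Hes1 was 1.10 and 0.98, so it counts as 2-fold in BM and not in BEM. The receptor gene Notch1 was at 8.55, 7.85 and 7.76 FPKM. The ligand gene Jag2, which hair cells also express, was at 8.26, 0.368 and 0.290 FPKM.

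The libraries were checked for hair cell RNA beside the high Atoh1 and Barhl1 values. Of the 28 hair cell markers 27 were found and 6 measured, with 1 higher and 3 lower than WT in each mutant (median log2 ratio -0.99 in BM and -0.95 in BEM). Over all measured genes 15.3% were lower in each mutant, and 10.5% (BM) or 10.7% (BEM) higher. Pou4f3, a hair cell factor downstream of ATOH1, was at 0.0197, 0.0211 and 0.0178 FPKM (WT, BM, BEM), from 1 read in each. Tmc1, a subunit of the mechanotransduction channel, was listed at 0 in all 3. Myo7a, an unconventional myosin of hair bundles, was at 0.704 FPKM for WT, 9.79 for BM and 9.83 for BEM. Myo6 was at 3.65, 2.04 and 2.15 FPKM and the bHLH gene Hes6 at 22.0, 7.89 and 8.87 FPKM. The summed level of the markers was 42.5 FPKM for WT, 24.1 for BM and 24.7 for BEM, below Atoh1 alone in every library. Its largest parts were Hes6 and Jag2 (8.26 FPKM) in WT, and Myo7a and Hes6 in the mutants, so the sum rests on few genes.

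Markers of other settings in which ATOH1 acts were read the same way, beside the same shares (15.3% of all measured genes lower in each mutant, 10.5% or 10.7% higher). Of 15 granule cell lineage genes 5 were measured and 4 were lower in both mutants (median log2 ratio -1.79 in BM and -1.86 in BEM). Meis2 was at 13.5, 3.53 and 3.34 FPKM (WT, BM, BEM), and Meis1 at 6.17, 2.67 and 2.52 FPKM, while Gabra6 and Nhlh1 were listed at 0. Of 8 Merkel cell genes 6 were measured, with 5 lower and 1 higher (median -2.04 and -2.15). Of these, the keratin gene Krt20 was at 5.51, 0.258 and 0.262 FPKM and the neuropeptide gene Cck at 0, 7.33 and 7.48 FPKM. None of the 8 genes of dorsal spinal dI1 interneurons or of the 9 of intestinal secretory cells was measured. Among 16 proneural bHLH genes 8 were listed at 0 in every library, Neurog1 and Atoh7 included, and of the 2 measured, 1 was 2-fold lower in each mutant (median -0.61 and -0.49). Atoh8, a distant relative of Atoh1, was at 4.40, 4.13 and 4.76 FPKM, and Bhlhe22 at 4.11, 1.61 and 1.68 FPKM, 2.56-fold lower in BM.

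Markers of other cells differed between the mutant libraries and the WT library. Their lists were written with earlier results of these data known, so the counts describe the libraries and support no conclusion about the lines. All 10 macrophage genes were at least 2-fold higher in BM and in BEM than in WT, and their median log2 ratio was 6.21 and 6.32 and their summed level 12.7 FPKM for WT, 1888 for BM and 1938 for BEM. Lyz2 was at 3.08 FPKM for WT and 1380 for BM, and C1qa was listed at 0 in WT and at 119.6 FPKM in BM. Of 10 smooth muscle and fibroblast genes 8 were higher in both mutants (median 3.95 in each), with a summed level of 1985, 7434 and 7373 FPKM. Over all measured genes, 10.5% were higher in BM and 10.7% in BEM. Acta2 was at 37.0, 2576 and 2578 FPKM. The 2 genes under 2-fold were both lower in the mutants: Col3a1 at 815.6, 628.7 and 624.5 FPKM, and Pdgfra at 51.0, 25.9 and 26.0 FPKM. Pdgfra is named after its values were seen. The part of these cells in the levels of Atoh1, its partners and the neighbours of Atoh1 and Barhl1 was not tested. Between BEM and BM, 0 of the measured genes of these lists were 2-fold apart, where 0.784% of all measured genes were.

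**Figure D5:**
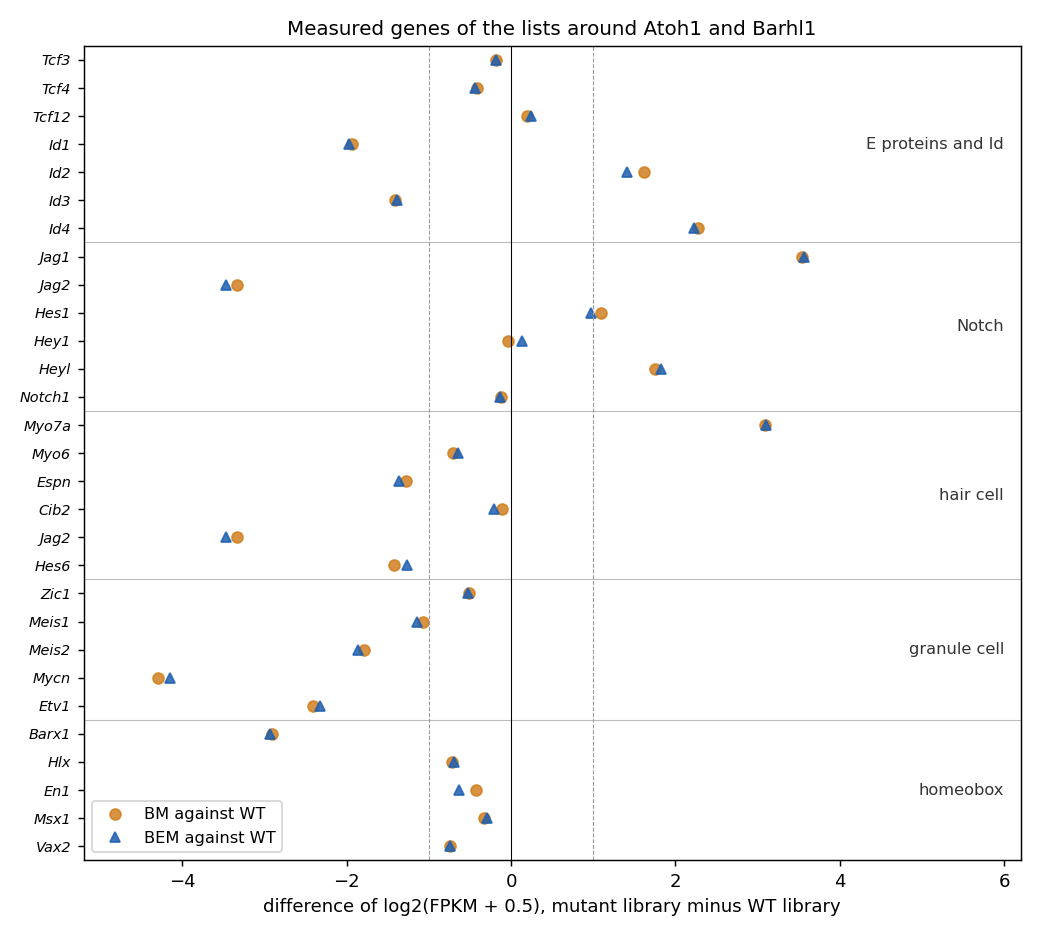
Measured genes of the E protein and Id, Notch, hair cell, granule cell and homeobox lists are placed by the difference of log2(FPKM + 0.5) to WT, circles for BM and triangles for BEM, with dashed lines at 2-fold. Id1 and Id3 lie left of the lines and Id2 and Id4 right of them, and of the homeobox genes only Barx1 lies past a line.

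Barhl2 gave 0.0601 FPKM in WT and 0 in BM and BEM, which is 3 reads against 0 and 0. All 3 values are at or below the floor of 3 reads, so no fold is given and a difference was not detectable at this depth. The floor was 0.0645 FPKM in BM and 0.0544 FPKM in BEM. Of 24 genes annotated within 500 kb of its start, only the zinc finger gene Zfp644 reached 1 FPKM in a library, at 1.97 FPKM for WT, 3.44 for BM and 3.46 for BEM. Zfp644 was 1.75-fold higher in BM (95% counting interval 1.58 to 1.94) and 1.76-fold higher in BEM (1.59 to 1.94), below 2-fold.

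Among 22 Bar, Barx and related homeobox genes, Barhl2 included, 5 were measured and only Barx1 was 2-fold apart from WT (median log2 ratio -0.71 in BM and -0.69 in BEM). That 1 lower gene of 5 is near the share of all measured genes, 15.3% in each mutant. Barx1, a homeobox gene of stomach and jaw mesenchyme, was at 5.64 FPKM for WT, 0.320 for BM and 0.300 for BEM, 17.6-fold lower in BM (9.07 to 39.2), and is named after its values were seen. En1, a midbrain and limb homeobox gene, was at 19.6, 14.5 and 12.5 FPKM. Vax2 was at 7.43, 4.24 and 4.23 FPKM, Hlx at 5.44, 3.12 and 3.17 FPKM, and Msx1 at 3.54, 2.71 and 2.81 FPKM. Dbx1 and Noto were listed at 0. None of the measured relatives reached the level of Barhl1 in WT or BM.

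Ddx31, the gene next to the 3′ end of Barhl1, was at 2.38 FPKM for WT, 4.64 for BM and 4.37 for BEM, from 181, 330 and 368 reads. WT was the low library, and the mutants lay close together. Relative to WT, Ddx31 was higher by 1.95-fold in BM (95% counting interval 1.63 to 2.36) and by 1.84-fold in BEM (1.54 to 2.21). In log2(FPKM + 0.5) this was 0.84 and 0.76, just inside the 2-fold limit, and 0.99 and 0.90 with upper quartile scaling. BEM against BM was 0.942-fold (0.81 to 1.10), an interval that includes equal levels. The ratio of BM to WT was above that of 11197 measured genes and below that of 1677. In the authors' deposited table Ddx31 had a log2 ratio of 0.94 for BM (p 0.247, FDR 0.789) and 0.85 for BEM (p 0.286, FDR 0.829).

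Gtf3c4, whose start adjoins that of Ddx31, was at 10.2 FPKM for WT, 10.1 for BM and 9.86 for BEM, from 1585, 1464 and 1698 reads. All 3 counting intervals included equal levels: BM was 0.990-fold WT (0.921 to 1.06), BEM 0.970-fold WT (0.905 to 1.04) and BEM 0.980-fold BM (0.913 to 1.05). Its direction is not given, since its log2 ratio of -0.01 in BM became 0.12 with median-of-ratios scaling and 0.15 with upper quartile scaling. The Ddx31 interval in BM, from 1.63, did not meet that of Gtf3c4, up to 1.06, although only 45 bases lie between the annotated starts. With 1 library per line this compares the libraries and not the lines.

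Ttf1, on the 5′ side of Barhl1 with its start 143.6 kb from the Barhl1 start, was at 4.63 FPKM for WT, 4.73 for BM and 5.01 for BEM, from 601, 573 and 719 reads. All 3 counting intervals included equal levels. BM was 1.02-fold WT (0.910 to 1.15), BEM 1.08-fold WT (0.970 to 1.21) and BEM 1.06-fold BM (0.948 to 1.18).

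Ak8 was at 0.124 FPKM for WT, 0.265 for BM and 0.179 for BEM, from 5, 10 and 8 reads. The ratio of BM to WT was 2.14 with a counting interval of 0.668 to 7.99 and that of BEM to WT 1.45 (0.418 to 5.63), so a difference was not detectable at this depth. Cfap77, the nearest gene on the 5′ side, was at 0.248 FPKM for WT, 0.0379 for BM and 0.112 for BEM, from 14, 2 and 7 reads. WT was the high library. Relative to WT, Cfap77 was 6.53-fold lower in BM, with a counting interval of 1.50 to 59.2, and 2.21-fold lower in BEM (0.834 to 6.47), whose interval includes equal levels. The 2 reads in BM lie under the floor of 3, and in the authors' deposited table Cfap77 had a log2 ratio of 0 for BM (p 1) and -0.71 for BEM (p 0.462, FDR 0.971). The annotated pseudogene Gm13394 lies within Cfap77 and had 3, 6 and 7 reads of its own. Both lie on the minus strand, so counting by strand could not tell their reads apart. Ak8 and Cfap77 stayed under 1 FPKM in every library.

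Over 500 kb on each side of the Barhl1 start, 32 genes are annotated and 16 reached 1 FPKM in a library. Besides Barhl1, 1 of the other 15 was at least 2-fold higher and 2 were lower in BM, with the same counts in BEM. Over all measured genes, 10.5% were higher and 15.3% lower in BM, and 10.7% and 15.3% in BEM, so these counts do not set the stretch apart. The higher gene was 1700007K13Rik, 450.3 kb away, at 4.62 FPKM for WT, 11.2 for BM and 12.4 for BEM. The lower genes were Gbgt1, a glycosyltransferase gene, at 4.23, 0.335 and 0.345 FPKM, and Gm10134, from 22, 1 and 4 reads. Between BEM and BM 0 of the 15 were 2-fold apart (0.784% of all measured genes were), and their log2 ratios lay between -0.14 and 0.58.

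The remaining genes in that stretch lay under 2-fold on the log2(FPKM + 0.5) scale. Ralgds, a Ras effector gene, was at 23.4 FPKM for WT, 11.6 for BM and 12.0 for BEM, and Tsc1, which restrains mTOR signalling, at 9.54, 5.67 and 5.58 FPKM. Ntng2, a netrin-like gene, was at 1.80, 0.673 and 0.695 FPKM, and Med27, a Mediator subunit gene, at 3.70, 4.99 and 4.82 FPKM. Gtf3c5, which encodes another subunit of TFIIIC, was at 5.37, 5.40 and 5.57 FPKM, close to level like Gtf3c4. Mrps2 was at 12.3, 11.8 and 10.7 FPKM, Rpsa-ps9 at 6.08, 3.99 and 4.51 FPKM, and Spaca9 at 1.30, 0.865 and 0.843 FPKM.

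The measured genes whose 3 values moved most like those of Barhl1 were Mir7237, Gm22063, Mir6911, Mir5100 and Gm23706. Likeness was the Euclidean distance of log2(FPKM + 0.5), centred over the 3 libraries, among 12874 genes. These distances were 4.19 to 4.56, and 0 genes lay within 0.5 of Barhl1. All 5 are small RNA genes listed at 0 in BEM, and the farthest of them between BEM and BM, Gm23706, had 6 reads in BM and 0 in BEM. For Atoh1 the nearest genes were Agtrap, Prdm2, Phf10, Osbp and Il1r1, at distances of 0.0032 to 0.0064. As many as 7041 genes lay within 0.5 of Atoh1 and 1156 within 0.1, so a near-flat profile like that of Atoh1 was common. Agtrap was at 4.61, 3.97 and 4.06 FPKM (WT, BM, BEM).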

How the data were processed

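RNA-seq of 3 libraries, 1 per line, was analysed from 3 tables of 47725 genes, each holding 2 libraries; values of the same library were identical between tables, and 4 empty lines per table were not used here. Expression was deposited as FPKM, per the file headers. The authors' log2 ratio, p-value and FDR for each pair were deposited beside it, per the file headers. The submitters' processing notes list TopHat2, HTSeq and edgeR and the build GRCm38, with no versions. Libraries were made from oligo-dT enriched RNA with a TruSeq kit, per the labels' protocols.

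The 8 genes and 11 gene lists were chosen with earlier results of these data known. Ratios were differences of log2(FPKM + 0.5), counted at 2-fold over the 12875 genes averaging 1 FPKM or more; the pseudocount understates ratios of low genes. The deposited values are not counts, so no count test was run. Reads were recovered by finding the library totals and gene lengths at which all 3 FPKM values are whole reads to within 0.0001, a step tested on simulated data; 72.0% of measured genes were whole at the annotated length. Ratio intervals are exact Clopper-Pearson 95% intervals of recovered reads and cover counting error only, and the floor was 3 reads per library. Named genes were the 8, those of at least 1 FPKM within 500 kb of Barhl1 (1 of which is not reported here), the 5 nearest profiles of Barhl1 and Atoh1, and up to 4 of the highest and 2 of the lowest genes of each list; the windows around Atoh1 and Barhl2 were added with the values known. Positions came from GENCODE (GRCm38), where 47220 of the 47725 identifiers were found, and promoter windows from RefSeq (GRCm38.p6); all 8 genes matched. Python 3.11.15, pandas 2.3.3, numpy 2.4.6, scipy 1.17.1 and matplotlib 3.10.9 were used. Alternatives were other pseudocounts, scalings, filters and tolerances and the authors' own ratio.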

Additional observations from a re-analysis of the deposited data

How the results depend on the processing

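All 24 alternative counts of genes past 2-fold (other scalings, pseudocounts, filters, a 4-fold limit and the authors' ratio) equalled the reported counts. The counts with other scalings and pseudocounts covered only the measured genes among the 8. They left out Barhl2 (both mutants) and Cfap77 (BM), which passed 2-fold against WT with a pseudocount of 0.05 FPKM. The sizes of single-gene log2 ratios depended on the pseudocount. Barhl1 stayed past 2-fold in BEM against WT but ran from -13.52 (the authors' ratio) to -4.71. Of 120 alternative log2 ratios, 8 of uncalled genes moved beyond their counting interval or past 2-fold, and the sign of Gtf3c4 and of Atoh1 in BEM against WT (0.0019 with upper quartile scaling) turned. The 8 were Barhl2 with a pseudocount of 0.05 FPKM (-1.14 in both mutants against WT), Ddx31 with a pseudocount of 5 FPKM (0.39 for BM and 0.35 for BEM) and Gtf3c4 with other scalings (0.12 and 0.15 for BM, 0.08 and 0.12 for BEM). With a pseudocount of 0.05 FPKM, Cfap77 went to -1.76 and Ak8 to 0.86 in BM against WT, within their wide counting intervals. Median-of-ratios scaling shifted all ratios to WT by 0.14 for BM and 0.13 for BEM, and upper quartile scaling by 0.17 for both. Barhl1 and Atoh1 gave no whole reads at tolerances of 0.001 and 0.01 reads either, which were chosen after seeing the data, so levels from recovered reads could not be given for them. No paired analysis was possible because each line has 1 library, and no library could be left out. Depth limits Barhl2, Ak8 and Cfap77, which had at most 14 reads in a library.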

Other observations

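Among the 26603 genes above 0 in a library, 3 gave no whole reads: Barhl1, Atoh1 and Lcn2, which encodes the iron-binding protein lipocalin and is named after its values were seen. Lcn2 came to 2.94 reads in WT, 6 in BM and 3 in BEM at its annotated length of 2623 bases. The cause was not tested.

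In the authors' deposited table for BEM against BM, 1 gene was marked significant, Barhl1, and the next lowest p-value was 0.0226. The authors' deposited tables marked 1554 genes for BM against WT and 1643 for BEM against WT. The FDR of Barhl1 in the authors' deposited table was 144414 times its p-value for BEM against WT and 112500 times for BEM against BM. Each table holds 47725 genes, and a Benjamini-Hochberg value is at most the p-value times the number of genes tested; the labels do not say how the authors reached their FDR. The next largest such factor in the authors' deposited tables was 8115 (C1qa) for BEM against WT and 44.2 (Gm8750) for BEM against BM.

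The authors' deposited log2 ratio is smaller than the plain ratio of FPKM for genes with few reads on 1 side. For 47 genes with 1 to 5 reads in the lower library and at least 500 in the higher, the gap was 0.55 to 5.27 (median 1.96) for BEM against WT. For Barhl1, with 0.998 reads at the annotated length in BEM, it was 0.0046. Why Barhl1 differs in this from the other genes was not tested.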
